A study of Mus musculus with 16 samples.

Results

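Expression of 10 genes of the early response to receptor signals was followed in D10 cells, a mouse Th2 cell line. The genes are the EGR transcription factors (Egr1, Egr2 and Egr3), their co-repressors (Nab1 and Nab2), the NR4A orphan nuclear receptors (Nr4a1, Nr4a2 and Nr4a3) and the immediate early response genes Ier2 and Ier3. They were chosen by symbol, and each had 1 entry among the 18138 genes of the array. D10 is a fast-growing variant of 1 T cell clone, kept in medium with human IL-2. There were 8 groups of 2 arrays. Control cells were stimulated for 0, 2, 6 or 12 h with biotinylated antibodies to CD3 and CD28 that were crosslinked with streptavidin, and the other 4 groups received the same stimulation after 1 h with 10 µM Akti1/2, an allosteric inhibitor of the kinases Akt1 and Akt2. The study's methods describe control cells as untreated, whereas its results name a solvent. No unstimulated cells were sampled at 2, 6 or 12 h. Changes from 0 h, called responses here, therefore cannot separate stimulation from elapsed time. The first sample after 0 h was at 2 h, so a change that came and went before then would not be seen. The labels do not state whether duplicates were separate cultures, so p-values measure the spread between these samples, which may be technical.

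Immediate early genes are transcribed within minutes of receptor engagement without new protein synthesis. In T cells, the T cell receptor drives Egr1 mainly through ERK and serum response factor, Egr2 and Egr3 also through NFAT, and NR4A genes mainly through calcium signals. EGR proteins bind GC-rich sites, are held in check by NAB1 and NAB2, and, with NR4A proteins, are known for their part in T cell anergy and exhaustion. IER3 (IEX-1) is a short-lived regulator of apoptosis and a known NF-κB target gene.

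Upstream sequences were found for 7 of the 10 genes in the RefSeq promoter table (build GRCm38.p6). No entry was found for Egr1, Egr3 or Ier2. Promoters on 1 chromosome were left out before the search, both for these genes and for the background percentages below. A gene without an entry may therefore still have one in the full table. Each window holds the 250 bases before a transcript start, written 5′ to 3′ on the strand of the gene, and capitals mark motif matches. The windows of Ier3, Egr2 and Nab1 are shown because these genes were above background on every array and responded to stimulation or to Akti1/2. Motifs were searched on both strands for 5 elements: the CArG box of serum response factor, the κB site, the cyclic AMP response element TGACGTCA, the EGR site GCGNGGGCG and the AP-1 site (TGACTCA or TGAGTCA). None of the matches in the printed windows overlapped. Ier3 lies on chromosome 17 (chr17:35821463-35821712, plus strand) and had 1 match to the κB site, which began 92 bases before the start. Egr2 has 5 starts in the table on chromosome 10, and the windows of 4 of them held a CArG box. The overlapping windows of starts 3, 4 and 5 held the same box, and that of start 2 a different one. The window shown is that of the third start (chr10:67537619-67537868, plus strand), where the box began 72 bases before it. Nab1 lies on chromosome 1 (chr1:52500449-52500698, minus strand) and held 3 EGR sites, 141, 109 and 38 bases before the start, and 1 κB site at 71 bases.
Ier3: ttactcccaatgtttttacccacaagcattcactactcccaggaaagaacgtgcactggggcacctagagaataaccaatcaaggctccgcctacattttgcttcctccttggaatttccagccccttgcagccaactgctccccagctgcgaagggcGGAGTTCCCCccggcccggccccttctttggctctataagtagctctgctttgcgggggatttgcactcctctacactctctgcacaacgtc
Egr2: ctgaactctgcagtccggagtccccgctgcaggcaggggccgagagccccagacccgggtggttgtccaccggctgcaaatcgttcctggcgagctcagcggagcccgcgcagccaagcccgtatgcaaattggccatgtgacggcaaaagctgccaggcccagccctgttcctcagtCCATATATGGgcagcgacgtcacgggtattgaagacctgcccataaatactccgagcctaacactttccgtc
Nab1: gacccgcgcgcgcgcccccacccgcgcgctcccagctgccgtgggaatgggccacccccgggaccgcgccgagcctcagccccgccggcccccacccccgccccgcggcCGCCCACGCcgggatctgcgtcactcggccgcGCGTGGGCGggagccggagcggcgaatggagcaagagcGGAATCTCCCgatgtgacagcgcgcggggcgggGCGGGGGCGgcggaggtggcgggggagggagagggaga
Among 32851 promoter windows of the same length, 1.47% held a CArG box, 3.9% a κB site, 1.55% the cyclic AMP response element, 4.7% an EGR site and 4.46% an AP-1 site. The windows of Nr4a1 and Nr4a2 held 1 EGR site each, and those of Nab2 and Nr4a3 held none of these letters. A match describes the sequence only.

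Bead intensities were deposited without normalization. On each array, a gene counted as above background when under 1% of the 798 negative controls were as bright or brighter, and 6288 to 6907 genes per array met this. Levels are given below as intensities (linear scale, as deposited) or as log2 intensities after background correction and quantile normalization with limma's neqc. Tests were run with limma in 1 fit of all groups on the 7395 genes that met it on 2 or more arrays. P-values were adjusted over these genes by the Benjamini-Hochberg method, and a gene was called where the adjusted p was under 0.05. Replicate arrays correlated at 0.986 to 0.994, and the small number of arrays sets the precision. The 16 arrays lay on 2 chips, each with 1 array of each group. The T cell markers Cd3e, Cd3g, Cd3d, Cd28 and Lck and the Th2 markers Gata3, Il4, Il5, Il13 and Il1rl1 were above background on all 16 arrays, whereas Cd4 was so on 13 and Maf on none. None of 6 myeloid markers and none of 3 B cell markers reached background on at least 2 arrays, and of 5 cytotoxic and NK markers only Prf1 did.

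Egr1, Egr2, Nab1 and Ier3 were above background on all 16 arrays. Nab2 was above it on 4 arrays, which were both of control cells at 2 h, 1 of control cells at 6 h and 1 of Akti1/2-treated cells at 6 h. Nr4a2 was above it on 1 array, and Egr3, Nr4a1, Nr4a3 and Ier2 on none. Of the 10 genes, 5 were therefore tested. Nab2 was tested only because of the arrays on which it was bright, so its calls are given as values that support nothing on their own.

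**Figure D1:**
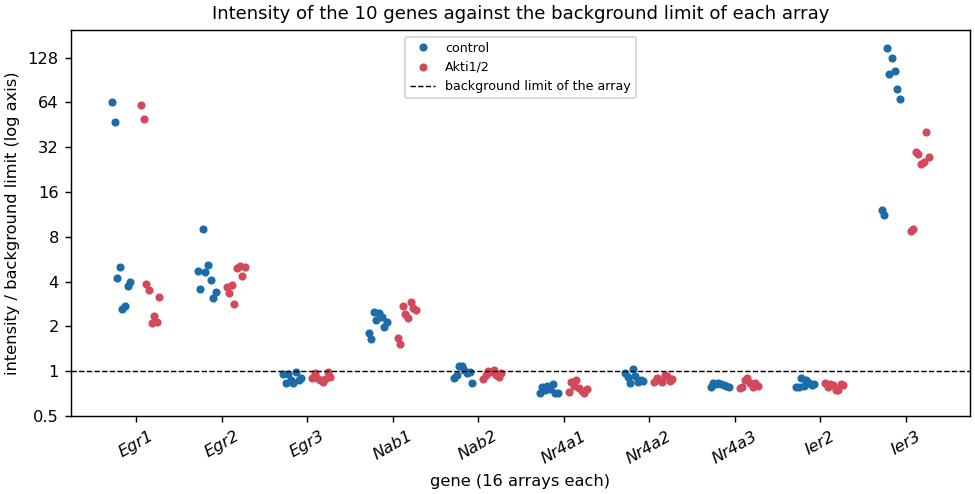
Intensity of each of the 10 genes on each of the 16 arrays, divided by the background limit of that array (log axis, dashed line at 1; control arrays blue, Akti1/2 arrays red, each in the order 0, 2, 6 and 12 h). Egr1, Egr2, Nab1 and Ier3 lie above the line on all arrays, Nab2 crosses it on 4, and Egr3, Nr4a1, Nr4a3 and Ier2 stay under it.

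Egr1, the prototype of the EGR zinc finger factors, was bright before stimulation and much dimmer at 2, 6 and 12 h. At 0 h its intensity was 11338.2 and 7636.8 in control cells, and 9996 and 7729 after Akti1/2. At 2 h it was 702.6 and 870.5 in control cells, against 516.8 and 529.4 with Akti1/2. At 6 h it was 451.6 and 452.8 in control cells, against 299 and 399.5 with Akti1/2. The 4 unstimulated arrays lay far above the 12 stimulated ones, and the lowest pair was that of Akti1/2-treated cells at 6 h. At 12 h it was 635.1 and 700.4 in control cells, against 360.2 and 505.8 with Akti1/2. These are bulk RNA samples, so fewer cells with the transcript and less transcript per cell cannot be told apart.

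In control cells, Egr1 was 13.6-fold lower at 2 h than at 0 h (log2 change -3.77, SE 0.29, adjusted p = 4.38e-06 in limma, n = 2 arrays per group). The log2 change was -4.72 at 6 h and -4.08 at 12 h. With Akti1/2 it was -4.00 at 2 h, -5.24 at 6 h and -4.90 at 12 h, and all 6 changes passed the test with the same direction on both chips. As normalized here, this was the largest fall of all 7395 tested genes at each of the 3 time points, in control and in Akti1/2-treated cells. Between 2 and 6 h, Egr1 fell further with Akti1/2 (-1.24, adjusted p = 0.00702 in limma) and, near the threshold, in control cells (-0.95, adjusted p = 0.0436). The control call was lost when control array 2 at 2 h (-0.63, adjusted p = 0.308) or either control array at 6 h was left out (-0.85 and -1.05, adjusted p = 0.175 and 0.116), and the Akti1/2 call without array 2 at 2 h (-1.09, adjusted p = 0.0585) or array 1 at 6 h (-1.14, adjusted p = 0.0552).

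Whether Akti1/2 altered the Egr1 response was tested as an interaction, the change from 0 h with Akti1/2 minus that without. It was -0.23 at 2 h (95% interval -1.11 to 0.65), -0.52 at 6 h (-1.40 to 0.35) and -0.82 at 12 h (-1.70 to 0.05), and none passed the test (adjusted p = 0.763, 0.399 and 0.141 in limma). These intervals include differences of more than 2-fold, so a like response in both conditions was not shown. Without Akti1/2 array 2 at 12 h, the interaction there was -1.36 and called (adjusted p = 0.00761). The direct comparison of Akti1/2-treated with control cells at 12 h was called (-0.85, SE 0.29, adjusted p = 0.0270), with -1.36 on chip 1 and -0.33 on chip 2. It rested on Akti1/2 array 1, without which it was -0.31 (adjusted p = 0.341), and the call was also lost without either control array (adjusted p = 0.0983 and 0.0835).

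**Figure D2:**
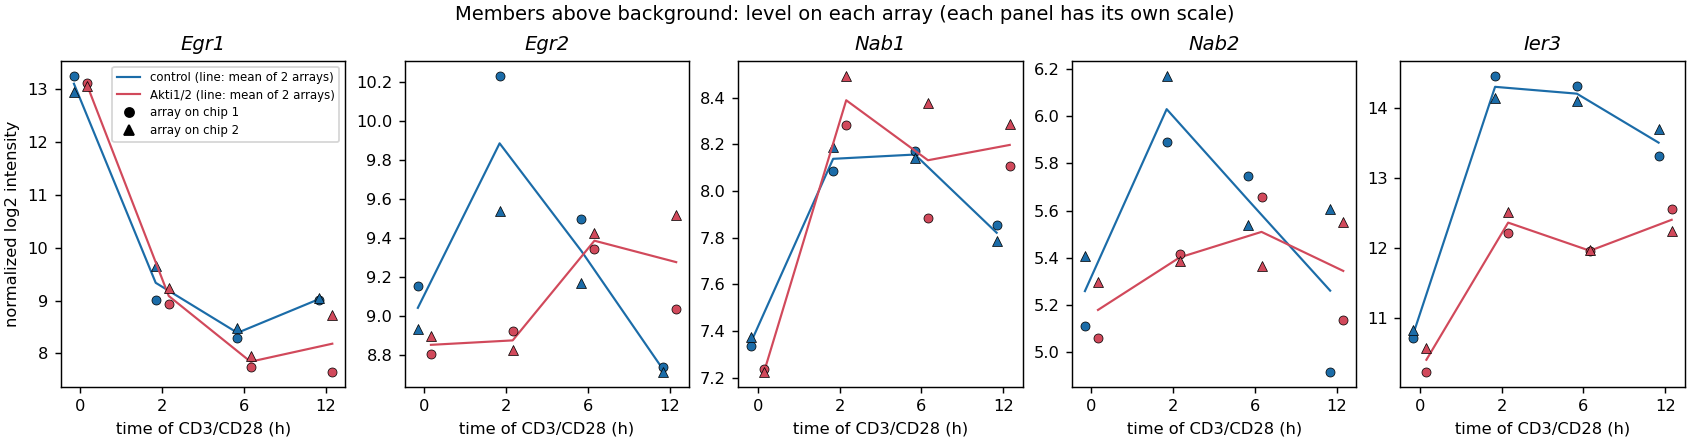
Normalized log2 intensity of the 5 tested genes on each array, by hours of CD3/CD28 stimulation (blue, control; red, Akti1/2; circles, chip 1; triangles, chip 2; lines join the means of 2 arrays; each panel has its own scale). Egr1 drops from 13.1 at 0 h to under 10 on every stimulated array, and the stimulated Ier3 arrays of control cells lie above those of Akti1/2-treated cells at each time point.

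Ier3 was the only member whose response was called as different with Akti1/2. At 0 h its intensity was 2132.9 and 1803.3 in control cells and 1416.8 and 1412.3 after Akti1/2. At 2 h it reached 24917.3 and 17331.2 in control cells, against 4041.9 and 4378.8 with Akti1/2. At 6 h it stood at 22076.5 and 17243.2 in control cells, against 3495.3 and 4340.5 with Akti1/2. The control and Akti1/2 arrays did not overlap at any of these times. At 12 h the control arrays read 13276.6 and 11891.8 and the Akti1/2 arrays 6868.9 and 4425.1. By mean log2 level, control cells at 2 h (14.3) and 6 h (14.2) overlapped at the top, followed by control cells at 12 h (13.5). Akti1/2-treated cells at 12 h (12.4) and 2 h (12.36) overlapped with each other, and those at 6 h (11.96) lay below them and above the unstimulated groups.

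Ier3 was 11.5-fold higher at 2 h than at 0 h in control cells (log2 change 3.52, SE 0.18, adjusted p = 1.04e-07 in limma, n = 2 arrays per group). With Akti1/2 it was 3.87-fold higher (1.95, SE 0.18, adjusted p = 1.39e-05). The log2 change in control cells was 3.42 at 6 h and 2.72 at 12 h, and with Akti1/2 1.55 and 1.99. All 6 rises passed the test. From 6 to 12 h, Ier3 fell by 0.70 on the log2 scale in control cells (adjusted p = 0.0238), a call lost without either control array at 6 h (-0.59 and -0.80, adjusted p = 0.153 and 0.0558) or control array 2 at 12 h (-0.50, adjusted p = 0.188). Control cells exceeded Akti1/2-treated cells 3.82-fold at 2 h, 4.72-fold at 6 h and 2.14-fold at 12 h, with adjusted p-values in limma of 3.17e-05, 3.17e-06 and 3.19e-04. Before stimulation the difference was -0.37 (95% interval -0.76 to 0.03, adjusted p = 0.975).

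The rise of Ier3 was smaller with Akti1/2 by a factor of 2.96 at 2 h (interaction -1.56, SE 0.26, adjusted p = 0.00554 in limma) and 3.65 at 6 h (-1.87, SE 0.26, adjusted p = 5.61e-04). Within the chips, these differences were -1.76 and -1.37 at 2 h, and -1.87 and -1.86 at 6 h, and both kept their call under all 16 alternatives tried. At 12 h the interaction was -0.73 (SE 0.26, adjusted p = 0.0456), with -0.27 on chip 1 and -1.19 on chip 2. With the chip as a block the adjusted p was 0.0540, and over the 16 alternatives it ranged from 0.0153 to 0.173, so the call at 12 h is not firm. It was lost without either control array at 0 h (-0.67 and -0.79), Akti1/2 array 2 at 0 h (-0.56), control array 1 at 12 h (-0.53) or Akti1/2 array 2 at 12 h (-0.57). The study picked Ier3 and Egr1 for quantitative PCR from these same samples, so neither gene's direction is independent evidence here. In its section on that PCR, a different measure with its own normalization, the study described a sharp decline of Egr1 and a delayed rise of Ier3. On these arrays the mean of Ier3 in control cells was already highest at 2 h, where it overlapped with 6 h.

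**Figure D3:**
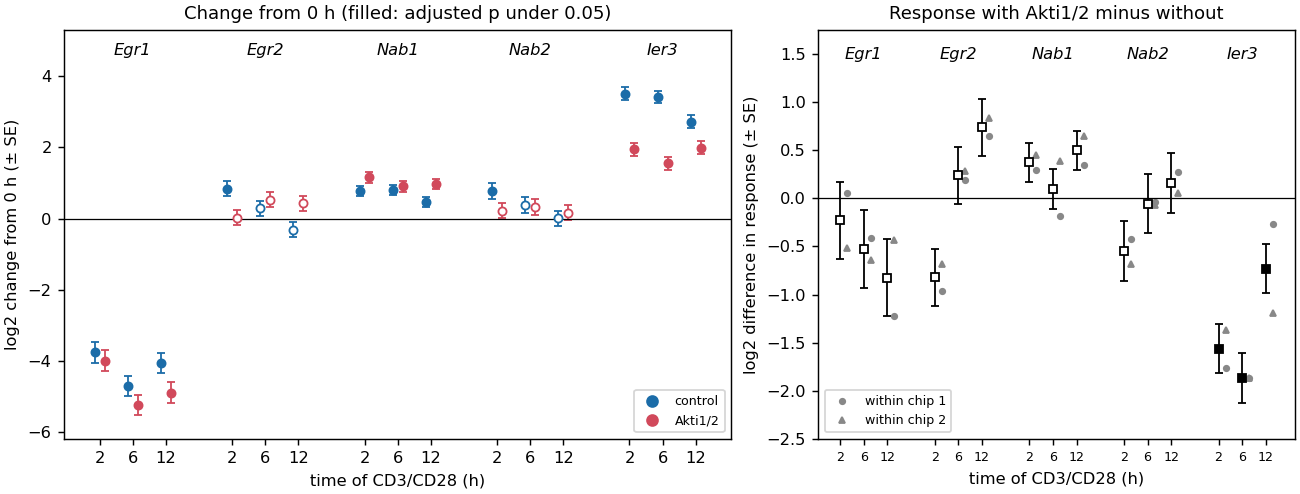
Left, log2 change from 0 h with its SE for the 5 tested genes at 2, 6 and 12 h (blue, control; red, Akti1/2; filled where the adjusted p is under 0.05). Right, the response with Akti1/2 minus that without, with its SE (black squares, filled where called) and the same difference within each chip (gray). Ier3 is the only one of the 5 with filled squares, at -1.56, -1.87 and -0.73.

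Egr2, the EGR factor most tied to T cell anergy, rose at 2 h in control cells, and none of its changes from 0 h with Akti1/2 passed the test. The probe comes from an oligonucleotide collection and the file gives it no gene identifier or definition, so its transcript rests on the symbol alone. Control arrays read 823.8 and 577.1 at 0 h, 1498 and 808.7 at 2 h, 903.8 and 670.3 at 6 h, then 526.2 and 600.2 at 12 h. With Akti1/2 they read 596.6 and 519.5 at 0 h, 515.5 and 430 at 2 h, 697.1 and 874 at 6 h, then 737.6 and 795.7 at 12 h. The highest reading was control array 1 at 2 h, well above its replicate. On the log2 scale, control cells at 2 h (9.89) lay above every other group without overlap.

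The rise at 2 h in control cells was 1.80-fold (log2 change 0.84, SE 0.21, adjusted p = 0.0255 in limma), and the changes of 0.29 at 6 h and -0.32 at 12 h did not pass the test. The call at 2 h was lost without either control array at 0 h (0.96 and 0.73, adjusted p = 0.0717 and 0.151) and without control array 1 at 2 h (0.50, adjusted p = 0.157). With Akti1/2 the log2 change was 0.02 at 2 h, 0.53 at 6 h and 0.42 at 12 h, with adjusted p-values of 0.0679 at 6 h and 0.119 at 12 h. The change at 6 h was called under 4 of 12 alternatives (adjusted p from 0.0431 to 0.0469). At 2 h, Egr2 was 2.02-fold lower with Akti1/2 than without (-1.01, SE 0.21, adjusted p = 0.00427 in limma; -1.31 and -0.72 on the chips), a call that held under all 12 alternatives. It was -0.67 (adjusted p = 0.0415) without control array 1 at 2 h and -1.36 without array 2. At 12 h the order was opposite, with Egr2 1.47-fold higher with Akti1/2 (0.55, adjusted p = 0.0445), a call lost without either control array at 12 h (0.54 and 0.56, adjusted p = 0.137 and 0.119) or Akti1/2 array 2 (0.31, adjusted p = 0.325). The interaction was -0.82 at 2 h (95% interval -1.46 to -0.18, adjusted p = 0.103), 0.24 at 6 h (-0.40 to 0.88, adjusted p = 0.616) and 0.74 at 12 h (0.10 to 1.38, adjusted p = 0.0738), so a difference in response between the conditions did not pass the test at any time. Without control array 2 at 2 h the interaction at 2 h was called (-1.17, adjusted p = 0.0311), and without Akti1/2 array 1 at 12 h that at 12 h (0.98, adjusted p = 0.0384). The latter was also called with arrays scaled to the same mean (0.88, adjusted p = 0.0428) and in a fit of only the groups compared (0.74, adjusted p = 0.0337). Scaling to the same mean moved the median interaction of all genes at 12 h from -0.02 to 0.08.

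Nab1, a co-repressor of EGR factors, was higher at 2, 6 and 12 h than at 0 h in both conditions. Control arrays read 318.8 and 266.2 at 0 h, 415.4 and 387 at 2 h, 424.8 and 383.1 at 6 h, then 333.7 and 377.3 at 12 h. With Akti1/2 they read 270.2 and 238.8 at 0 h, 371.1 and 368.3 at 2 h, 322.1 and 495.6 at 6 h, then 450 and 409.9 at 12 h. The unstimulated arrays were the lowest of the series on the normalized scale, and control cells at 12 h lay below the other stimulated groups. Among those, neighbors in the order of mean level overlapped. The log2 change in control cells was 0.78 at 2 h (SE 0.15), 0.80 at 6 h and 0.47 at 12 h, with adjusted p-values in limma of 0.00545, 0.00159 and 0.0306. The call at 12 h was lost with any of its 4 arrays left out (0.43 to 0.50, adjusted p from 0.0887 to 0.137). With Akti1/2 the change was 1.16, 0.90 and 0.97, and all 3 passed the test. The interaction was 0.38 (95% interval -0.07 to 0.82), 0.10 (-0.35 to 0.55) and 0.50 (0.05 to 0.95) at 2, 6 and 12 h, and the adjusted p-values were 0.275, 0.779 and 0.0813. That at 12 h was called with arrays scaled to the same mean (0.67, adjusted p = 0.0188) and in a fit of only the groups compared (0.50, adjusted p = 0.0270). The median interaction of all genes at 12 h was -0.02 as normalized here and 0.08 under the same-mean scaling. At 12 h, Nab1 was 1.30-fold higher with Akti1/2 (0.38, adjusted p = 0.0480), a call lost whenever 1 of the 4 arrays at 12 h was left out (0.29 to 0.47, adjusted p from 0.0623 to 0.232).

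Nab2, the second co-repressor and itself a known EGR target, stayed close to background. Its intensities in control cells were 158.4 and 152.5 at 0 h, 179.9 and 189.1 at 2 h, 177.1 and 159.3 at 6 h, then 166.5 and 148.3 at 12 h. With Akti1/2 they were 143.8 and 146.4, 134.9 and 149.2, 144.5 and 160.7, and 155.4 and 156.4 at the same times. Control cells at 2 h were the one group with both arrays above background. There Nab2 was higher than at 0 h (log2 change 0.77, adjusted p = 0.0442 in limma). With Akti1/2 at 2 h it was lower than in control cells (-0.63, adjusted p = 0.0493). With quantile normalization but no background correction these were 0.24 and -0.20, and neither was called. In both dim groups no array was above background, so lower bounds of the fold were also computed. They were 1.31 against 0 h and 1.49 against Akti1/2, as normalized here and without an error term. These bounds set the mean of the bright group against the lowest signal above background, or the gene's own where higher, on each dim array. Both calls were lost with any of the 4 arrays compared left out (log2 0.62 to 0.92 and -0.77 to -0.49, adjusted p from 0.0720 to 0.255 and from 0.0733 to 0.223) and under scaling to a common mean (adjusted p = 0.104 and 0.249). The interaction at 2 h was -0.55 (adjusted p = 0.294).

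The NR4A receptors, Egr3 and Ier2 gave no level that could be compared. Nr4a1 (Nur77), a marker of recent antigen receptor signaling, ranged from 107.9 to 139.2 over the 16 arrays, at most 0.873 of the background limit of its array. Nr4a3 (Nor1) ranged from 118.1 to 145.6, at most 0.899 of the limit. Nr4a2 (Nurr1) ranged from 117 to 179.8 and passed the limit on array 2 of control cells at 2 h, whose replicate read 138.6. Egr3, which acts with Egr2 in anergy, ranged from 119.4 to 168.5 and reached 0.991 of the limit, and its smallest detection p was 0.0125. Ier2, another immediate early gene, ranged from 105.1 to 150.3, at most 0.9 of the limit. Signals under the limit do not show that a transcript was absent, and each gene had a single probe.

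Counts of called members were read against the share of all tested genes called in the same comparison, since many comparisons called a large part of the array. In control cells, all 5 tested members were called at 2 h (4 higher and 1 lower, with 10.3% of all genes called in either direction), 3 at 6 h (27.5% of all genes) and 3 at 12 h (27.8%). The 3 members at 6 and at 12 h were Egr1, Nab1 and Ier3. They were also the 3 called with Akti1/2 at 2 h (38.6% of all genes), 6 h (33.3%) and 12 h (44.5%). Between 2 and 6 h, 1 member was called in control cells (Egr1, with 14.6% of all genes) and 1 with Akti1/2 (Egr1, with 30.2%). Between 6 and 12 h, 1 was called in control cells (Ier3, with 13.6% of all genes) and 0 by limma with Akti1/2 (17.8%), where 1 had an unadjusted p under 0.05. With 5 genes tested, of which Nab2 had to be bright somewhere, such counts are a description.

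Akti1/2 alone, before stimulation, gave 0 calls among the 5 by limma, and 0 had an unadjusted p under 0.05 (0.0541% of all genes were called). Against control cells, 3 members were lower with Akti1/2 at 2 h (Egr2, Nab2 and Ier3, with 28.4% of all genes called in either direction) and 1 at 6 h (Ier3, with 37.5%). Nab2 was tested through arrays that include both control arrays at 2 h, so its call in this count supports nothing. At 12 h, 4 were called, Egr1 and Ier3 lower and Egr2 and Nab1 higher, at 49.0% of all genes. The interaction called 1 member, Ier3, at each of 2, 6 and 12 h, against 8.41%, 19.5% and 32.5% of all genes.

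The study ranked genes by J5, the difference of mean intensities relative to the average size of that difference over all genes, which has no error term. Computed here on arrays scaled to a common 95th percentile, Ier3 scored 319.5, 243.0 and 137.9 at 2, 6 and 12 h in control cells, and 40.0, 30.3 and 38.5 with Akti1/2. Egr1 scored -143.9, -122.1 and -115.8 in control cells, against -86.4, -109.1 and -82.8 with Akti1/2. Both genes were thus beyond 20 in all 6 comparisons, and the other 8 members in none, with 1 threshold applied here at every time. Each score is relative to the average difference in its own comparison, so scores with and without Akti1/2 do not compare sizes of change. At 2 h the log2 change of Egr1 was -3.77 in control cells and -4.00 with Akti1/2. Scored over genes above background on at least 2 arrays, Ier3 with Akti1/2 was at 18.9, 13.3 and 16.2, within 20 at each time. Of all 18138 genes, 0.673%, 0.728% and 0.645% were beyond 20 in control cells at 2, 6 and 12 h, and 0.662%, 0.667% and 0.855% with Akti1/2. J5 weighs bright genes most, and no score of Egr2 exceeded 7.39.

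Other immediate early genes moved in both directions. Of a list of 32, 27 were on the array and 15 were tested. In control cells at 2 h, 6 were higher, 1 was lower and 8 were not called (10.3% of all genes were called). The median log2 change was 0.35, against -0.02 over all genes, and 0.16 to 0.26 under the 3 other scalings. Nfkbia, the inhibitor of NF-κB, rose by 4.26 and Tnfaip3, the NF-κB feedback regulator A20, by 3.28, while Myc fell by 1.04. Fos, a partner in AP-1, was not called at 2 h (0.09, adjusted p = 0.892 in limma). At that time it was higher with Akti1/2 than in control cells (1.07, adjusted p = 0.0225). Before stimulation that difference was 1.02, without a call (adjusted p = 0.727), and the interaction of Fos at 2 h was 0.05 (adjusted p = 0.958). In the interaction at 6 h, 3 were higher, 2 were lower and 10 were not called, against 19.5% of all genes called. The zinc finger gene Klf6 (2.07, SE 0.25, adjusted p = 2.48e-04) and Dusp1, a phosphatase of MAP kinases (1.57), were relatively higher with Akti1/2. Myc (-1.66) and the AP-1 gene Junb (-0.78) were relatively lower.

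Of a list of 28 genes of the ERK, serum response factor and calcium arms, 25 were on the array and 16 tested, and at 2 h in control cells 2 were higher, 1 was lower and 13 were not called (median -0.04, with 10.3% of all genes called), while the other scalings called 1 to 2 higher and 2 lower. With Akti1/2, 4 were higher and 4 lower at 2 h (38.6% of all genes called), and 6 were higher and 4 lower at 6 h (33.3%). In control cells at 2 h, Rasgrp1, which activates Ras in T cells, rose by 0.76, and Crem, a cyclic AMP response factor, by 0.53. Hdac7, a repressor partner of MEF2, fell by 0.89 in that same comparison. Srf, the gene of serum response factor, was at -0.01 there (adjusted p = 0.980 in limma). With Akti1/2 it fell by 0.69 at both 2 and 6 h (adjusted p = 0.00208 and 0.00197), and its interaction was -0.68 at 2 h, a call (adjusted p = 0.0461), but -0.54 at 6 h, no call (adjusted p = 0.0659). In the interaction at 6 h, Crem (1.17) and the kinase gene Rps6ka3 (0.88) were higher, and the other 14 were not called (19.5% of all genes were called), while the other scalings called 2 to 4 higher and 0 to 1 lower.

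Genes known as targets or partners of EGR2, EGR3 and NR4A in T cells were the third list, with 16 tested of 25 on the array and 28 listed. In control cells at 2 h, 3 were higher and 13 not called (10.3% of all genes were called), and each of the 3 other scalings also called 2 lower. Bcl6, a repressor of effector genes, rose by 1.97 and Socs3, an inhibitor of cytokine signaling, by 1.53. In the interaction at 6 h, 5 were higher, 3 were lower and 8 were not called, with 19.5% of all genes called. The median was 0.49, against -0.01 over all genes. It was 0.20 with quantile normalization but no background correction, 0.32 with an offset of 50 and 0.63 with scaling to a common mean. Under that last scaling the median of all genes moved to 0.12. Dgka, a kinase that limits Ras signaling and is tied to anergy, was relatively higher with Akti1/2 (1.03, SE 0.22, adjusted p = 0.00598 in limma), as was the inhibitory receptor gene Ctla4 (1.02, adjusted p = 0.00250). Socs3 (-1.98) and Id2 (-1.34), an inhibitor of E proteins, were relatively lower.

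The 3 genes with the most similar course over the 8 group means were listed for each tested member whose means spanned at least 1 log2 unit, among 2824 other genes with such a span. Only 8 points enter each correlation and all come from the same arrays. For Ier3 they were the cytokine gene Csf2 (Pearson r = 0.978), the transporter gene Slco2b1 (0.967) and Tnf (0.942). Nab1 ran closest to the activation marker Cd69 (0.956), Nfkbiz (0.950) and the NF-κB subunit gene Rel (0.947). Egr1 ran closest to the predicted gene LOC100045950 (0.975), the receptor gene F2rl2 (0.968) and the glycolytic gene Pfkm (0.952). The nearest genes to Egr2 were less alike, with Speer4d at 0.882, C530044N13Rik at 0.860 and Abhd4 at 0.831.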

How the data were processed

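RNA of 16 samples was hybridized to Illumina mouse RefSeq-8 arrays. Per the file headers, the authors exported 1 linear intensity per gene and array from the scanner software, without normalization or background subtraction. The genome build behind the probes is not given in the sources used here. The log2 values were computed from the deposited intensities with neqc (offset 16) in limma 3.58.1 under R 4.3.3. Testing covered genes whose detection p, the share of negative controls as bright or brighter, was under 0.01 on 2 or more arrays, with lmFit and eBayes, all 8 groups in 1 model, 17 contrasts and Benjamini-Hochberg adjustment over 7395 genes for each contrast (8 residual and 4.26 prior degrees of freedom). A second table repeats the control entries and was not used here. The study's methods describe a trial of several transformations, normalizations and tests, then a global normalization with J5 scores, and no linear model. J5 was also computed here from intensities. Fold changes of dim genes are understated by the offset. The genes described and the lists were chosen with earlier results of these data known. Named genes were the 10 members, the 3 genes most alike each member, and up to 2 genes in each direction of each list in control cells at 2 h and in the interaction at 6 h (Fos and Srf were added after their values were seen). Alternatives were other normalizations, offset 50, other filters, other fits, replicate and chip blocks and leaving out each array. The test was tried on simulated data. Figures were drawn with matplotlib 3.10.9 under Python 3.11.15.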

Additional observations from a re-analysis of the deposited data

Results flagged for a closer look

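The response of Ier3 to stimulation differed with Akti1/2 in limma at 2 and 6 h, and less firmly at 12 h. The interaction was -1.56 at 2 h and -1.87 at 6 h, with adjusted p-values of 0.00554 and 5.61e-04, and both chips gave the same direction and no alternative removed the call. At 12 h it was -0.73 (adjusted p = 0.0456), with -0.27 on chip 1 and -1.19 on chip 2, and the call was lost in 9 of 16 alternatives, among them the chip block (adjusted p = 0.0540) and the replicate block (adjusted p = 0.0536). No other tested member had an interaction past the threshold.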

How the results depend on the processing

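Of 1063 recomputed values of single genes, 984 stayed on their side of the threshold, 60 lost a call, 19 gained one and 0 reversed a call. Of the 984, 38 changed sign without being called in either setting. The falls of Egr1 and the rises of Ier3 from 0 h were called under every alternative. The number of members called moved by over 1.5 times as follows, and the cause was not tested. For control cells at 2 h against 0 h (5 in the report), a fit of only the groups compared called 3, and leaving out 1 array gave 3 to 4. Between 2 and 6 h in control cells (1), no filter on dim genes and the fit of only the groups compared called 0, and leaving out 1 array gave 0 to 1. Between 6 and 12 h in control cells (1), quantile normalization without background correction, the offset of 50 and only genes above background on all 16 arrays each called 2, and leaving out 1 array gave 0 to 1. With Akti1/2, scaling to the same mean called 2 between 2 and 6 h (1), leaving out 1 array gave 0 to 2 there, and 0 to 1 between 6 and 12 h (0). For Akti1/2 against control cells at 12 h (4), no filter called 1, and leaving out 1 array gave 1 to 2. The interaction at 2 h (1) gave 1 to 2 with 1 array left out. The interaction at 12 h (1) gave 3 with the same mean, 0 without a filter, 2 in the fit of only the groups compared, 0 with the replicate block, 0 with the chip block, and 0 to 2 with 1 array left out. J5 over genes above background on at least 2 arrays put 1 member beyond 20 (Egr1), in place of 2, at 2, 6 and 12 h with Akti1/2.

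No filter lost 8 of 34 calls, which were Nab2 at 2 h (both), Nab1 in control cells at 12 h, Egr1 from 2 to 6 h in control cells, Egr1, Egr2 and Nab1 against control cells at 12 h, and the interaction of Ier3 at 12 h. The fit of only the groups compared lost 6, which were Egr2 and Nab2 in control cells at 2 h, Egr1 from 2 to 6 h and Ier3 from 6 to 12 h in control cells, Egr1 against control cells at 12 h, and the interaction of Ier3 at 12 h.

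The replicate numbers are shared labels, and replicate differences of the groups correlated at a median of 0.017 over 28 pairs of groups (lowest -0.296, highest 0.264). With the replicate block, the interaction of Ier3 at 12 h (-0.73) had an adjusted p of 0.0536 in limma, and both calls of Nab2 were lost (0.77 with adjusted p = 0.0571, and -0.63 with adjusted p = 0.0606). It changed no other call. Leaving out an array assumes that the single one remaining in that group varies as arrays elsewhere do. Signal over background left 5 members with no testable level. Nab2 was tested close to background, and its calls support nothing on their own.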
